A study of Bos taurus with 16 samples.

Results

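The trophectoderm transcription factors described here are CDX2, GATA2, GATA3, TFAP2A, TFAP2C, HAND1, KLF5, ELF3 and ASCL2, taken by gene name. These 9 genes were found under those names in each of the 3 expression tables of the series, among 38959 genes in the first blastocyst table, 37429 in the second and 28303 in the stem cell table. The series asked how LY2955303 (LY), an inhibitor of retinoic acid receptor gamma, changed the transcriptome of bovine embryos produced by in vitro fertilization and of bovine embryonic stem cells (bESCs). RNA was sequenced from 12 single blastocysts and from 4 bESC libraries. The values are FPKM, read fragments divided by the length of the gene and the size of the library, a level per length that allows genes to be compared within a library.

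The first blastocyst table holds DMSO (3 blastocysts, vehicle at 1:5000) and LY10 (3 blastocysts, 10 μM LY). Both were cultured from the 2-cell stage and taken at day 8, in a medium that carried LIF, FGF2 and IGF1 in every group. The second table holds LY_DMSO (2 blastocysts, vehicle), cell2_LY (2, LY from the 2-cell stage) and cell16_LY (2, LY from the 16-cell stage), for which the labels give no dose. The stem cell table holds bESC_tifx (2 libraries, TIFX medium) and bESC_LY (2 libraries, 10 μM LY for 3 days), all grown on mouse embryonic fibroblast feeders. The study describes its stem cell control as a DMSO control, while the label of bESC_tifx gives only the medium. The labels give genotype WT and batch 1 to every sample. The embryos came from oocytes of slaughterhouse ovaries, and nothing says whether the blastocysts of a group shared parents or whether the stem cell libraries came from separate lines. The study's methods call the replicates of a group biological, and the labels do not say what separates the stem cell libraries of a group, so the p-values measure only the spread between these samples. In a whole blastocyst, fewer cells of a type and less RNA per cell cannot be told apart.

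Trophectoderm is the outer epithelium of the blastocyst and the source of the placental trophoblast, while the inner cell mass gives the epiblast and the hypoblast. In the mouse, TEAD factors with YAP switch on CDX2 and GATA3 in the outer cells, and GATA and AP-2 factors then hold the trophoblast program. In cattle the trophectoderm keeps expressing POU5F1 for longer than in mouse, and its later product, interferon tau, signals pregnancy to the mother. HAND1 and ASCL2 are best known from later trophoblast, and ELF3 and KLF5 from epithelia.

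Reads on genes numbered 7905768 to 17343140 in the blastocyst libraries and 29055323 to 31230432 in the stem cell libraries. In the blastocysts the trophectoderm keratins KRT8 and KRT18 lay between 1582 and 6493 FPKM and between 849 and 2902 FPKM. The trophectoderm marker GATA3 was at 19.1 to 74.6 FPKM, and CDX2 (0.21 to 7.68 FPKM) and IFNT2 (0.14 to 12.3 FPKM) were lower. POU5F1, which marks pluripotent cells, lay between 164 and 611 FPKM in blastocysts and between 967 and 1117 FPKM in bESCs. Of the other epiblast and pluripotency markers in bESCs, NANOG was at 36.3 to 53.8 FPKM and PRDM14 at 26.4 to 38.4 FPKM. DNMT3B (322 to 423 FPKM), SALL4 (107 to 188 FPKM) and LIN28B (44.5 to 80.1 FPKM) were higher. NODAL (3.98 to 5.41 FPKM) and TDGF1 (0.42 to 2.17 FPKM) were lower, FGF4 had 0 to 3 reads and SOX2 was not found by name. In the stem cells the trophoblast products IFNT2, PAG2 and TKDP1 had 0 reads in all 4 libraries, and KRT8 was still at 60.4 to 209 FPKM. DMSO replicate 3 stood apart from its group. Its Spearman correlation over 14249 genes was 0.903 to 0.927 with the LY10 blastocysts and 0.844 to 0.883 with the other DMSO blastocysts. Of the second table, LY_DMSO replicate 1 and cell2_LY replicate 2 were also more alike to a blastocyst of another group than to their own over 14529 genes. The former correlated at 0.935 with its own group and at up to 0.962 with another, and the latter at 0.935 and up to 0.952. Cell2_LY replicate 1 was also unusual, because the library size behind its FPKM was 1.23 times its reads on genes, against 0.949 to 1.07 in the other libraries.

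KLF5 was the most abundant member in all 12 blastocysts, and the median levels fell in the order KLF5 (120 FPKM), TFAP2C (49.6), GATA3 (38.5), GATA2 (16.8), ELF3 (4.16), TFAP2A (3.28), CDX2 (2.17), ASCL2 (0.30) and HAND1 (0.15). The steps from KLF5 to TFAP2C and from GATA2 to ELF3 held in 12 of 12 blastocysts. The remaining neighbours changed places in some embryos. TFAP2C exceeded GATA3 in 9, GATA3 exceeded GATA2 in 10, ELF3 exceeded TFAP2A in 8, TFAP2A exceeded CDX2 in 8, CDX2 exceeded ASCL2 in 11 and ASCL2 exceeded HAND1 in 9 of the 12. KLF5 alone made up 33.9% to 58.4% of the summed FPKM of the members, and KLF5, TFAP2C, GATA3 and GATA2 together 89.9% to 97.9%. CDX2, the best known of these factors, was thus low beside the abundant members, counted from 3 to 80 reads per embryo. Among genes with a read in the same blastocyst, its percentile was 20.5 to 70.9 in the first table and 33.1 to 63.0 in the second. These ranges include vehicle and LY embryos.

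**Figure D1:**
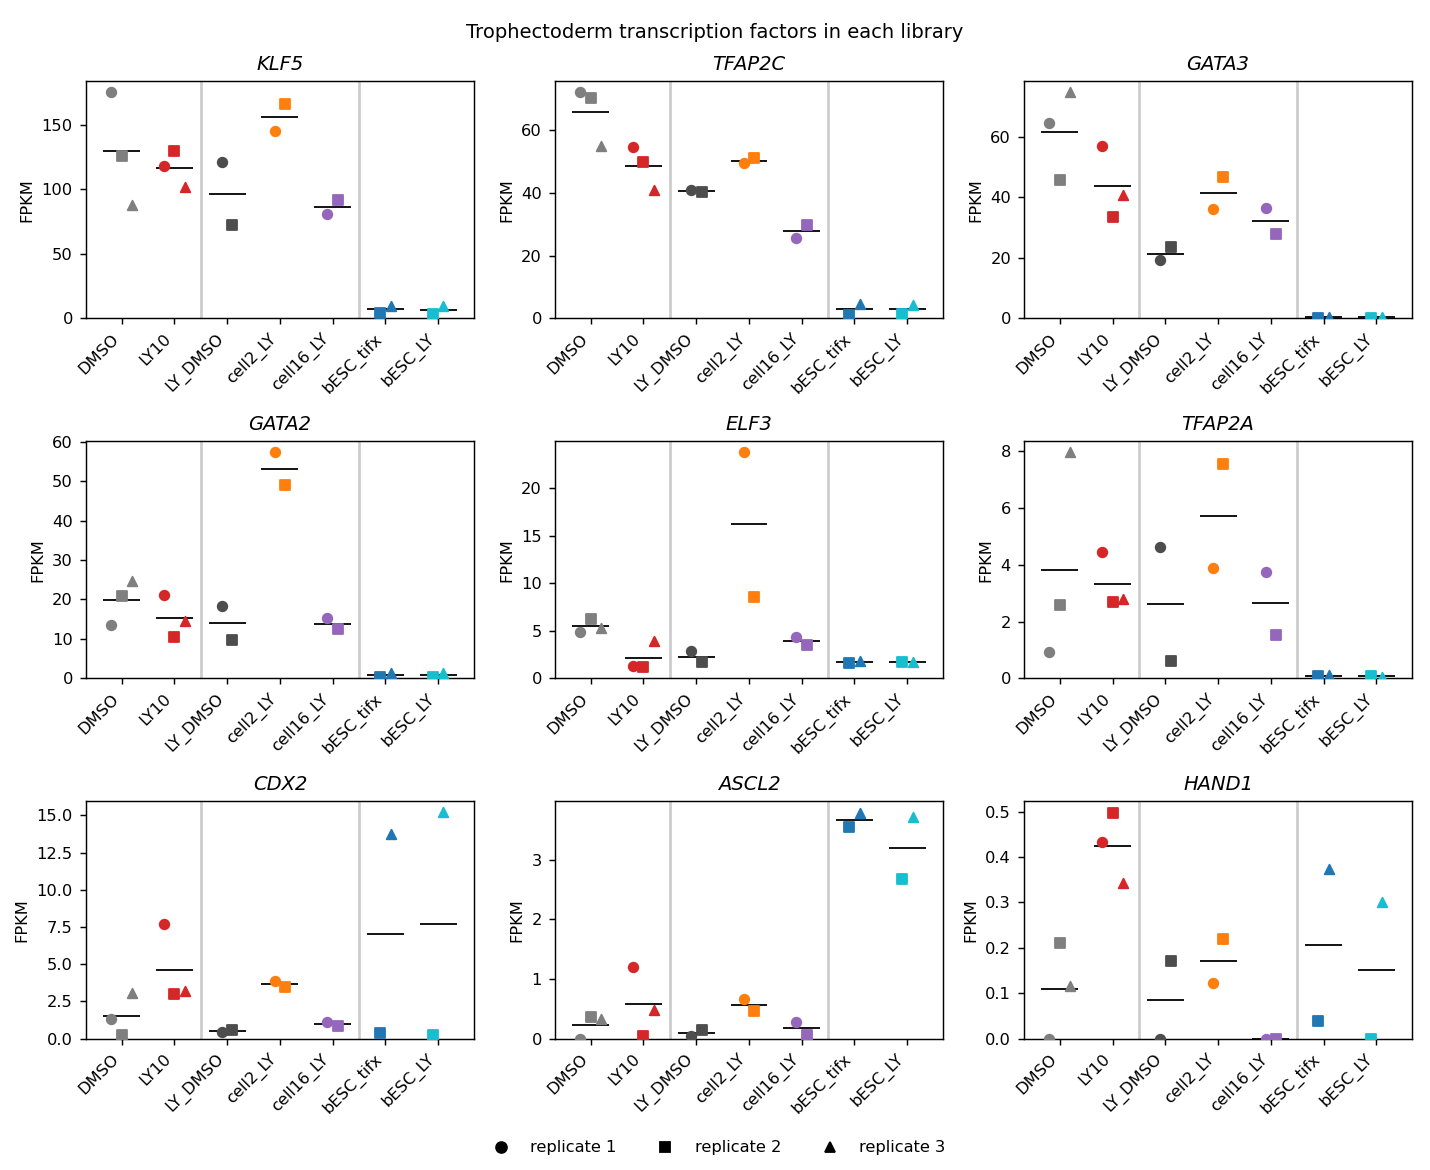
Level of each trophectoderm transcription factor in every library, in FPKM on linear axes that differ between panels. Points are libraries, their shape gives the replicate number, black lines are group means, and grey lines separate the 3 tables, which were normalized separately. CDX2 reached 15.2 FPKM in bESC_LY replicate 3, while GATA3 was at most 0.54 FPKM in any stem cell library.

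CDX2 lies on chromosome 12 from 32083554 to 32089291 on the plus strand (positions of the blastocyst tables, which are those of the ARS-UCD2.0 annotation). It is a caudal-type homeobox factor that commits outer cells to trophectoderm in the mouse. In DMSO blastocysts it stood at 1.31, 0.21 and 3.08 FPKM, which is 24, 3 and 40 reads. The LY10 blastocysts had 7.68, 3.02 and 3.19 FPKM, from 80, 64 and 35 reads. LY10 replicate 1 was the highest of the 6, and the groups met at DMSO replicate 3, which lay above LY10 replicate 2. The log2 fold change was 2.0 (SE 0.88), with an unadjusted p of 0.0506 and a Benjamini-Hochberg adjusted p of 0.219 (limma over 14249 genes). The threshold used for calls below is an unadjusted p under 0.05 and a fold change above 2, and CDX2 missed it here by its p. It passed under 7 of 15 alternatives, among them without DMSO replicate 3 (log2 fold change 2.78, adjusted p = 0.0598 by limma), where 9.46% of all tested genes passed upward. The log2 fold change was 1.03 without DMSO replicate 2, whose 3 reads have an exact Poisson 95% interval of 0.619 to 8.77.

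In the second table CDX2 was at 0.41 and 0.59 FPKM in LY_DMSO (9 and 13 reads) and at 3.87 and 3.49 FPKM in cell2_LY (72 reads in each). Both cell2_LY blastocysts exceeded both vehicle blastocysts several-fold, by a log2 fold change of 2.78 (SE 0.67, unadjusted p = 0.00284, adjusted p = 0.0811 by limma), and CDX2 passed the threshold. The cell16_LY blastocysts had 1.14 and 0.86 FPKM (25 and 15 reads). They lay above the vehicle embryos without overlap, but the log2 fold change of 0.94 (SE 0.67, adjusted p = 0.782 by limma) did not pass. The comparisons of cell2_LY and of cell16_LY with vehicle share the same 2 LY_DMSO blastocysts. Set directly against each other, cell16_LY was below cell2_LY by a log2 fold change of -1.84 (SE 0.67, unadjusted p = 0.0241, adjusted p = 0.227 by limma). That last call was lost when any of the 4 blastocysts compared was left out, with unadjusted p from limma of 0.0611 without cell2_LY replicate 2, 0.0734 without cell16_LY replicate 1, 0.0768 without cell2_LY replicate 1 and 0.129 without cell16_LY replicate 2.

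GATA3 (chromosome 13, 15904672 to 15935245, minus strand) is a zinc-finger factor of early trophectoderm. It had 64.5, 45.6 and 74.6 FPKM in DMSO and 56.7, 33.5 and 40.7 FPKM in LY10 blastocysts. The groups overlapped, with LY10 replicate 1 above DMSO replicate 2. The log2 fold change was -0.50 (SE 0.28, adjusted p = 0.308 by limma). LY_DMSO blastocysts had 19.1 and 23.5 FPKM, less than any other blastocyst. Cell2_LY blastocysts had 36.0 and 46.6 FPKM and cell16_LY blastocysts 36.4 and 27.98 FPKM. Each LY group lay above vehicle without overlap. The log2 fold change was 0.95 (SE 0.28, unadjusted p = 0.00785, adjusted p = 0.102 by limma) from the 2-cell stage, under the 2-fold limit, and 0.59 (SE 0.28, adjusted p = 0.677) from the 16-cell stage.

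GATA2 (chromosome 22, 59347411 to 59355012, plus strand), a related GATA factor with a role in trophoblast hormone genes, had 13.7, 20.9 and 24.8 FPKM in DMSO. It had 21.1, 10.4 and 14.4 FPKM in LY10, overlapping the vehicle, with a log2 fold change of -0.38 (SE 0.34, adjusted p = 0.517 by limma). The second table looked different. LY_DMSO had 18.2 and 9.71 FPKM, cell2_LY 57.3 and 48.9 FPKM, and cell16_LY 15.3 and 12.4 FPKM. The cell2_LY blastocysts stood above all 10 other blastocysts of both tables, which were normalized separately. Against LY_DMSO the log2 fold change was 1.99 (SE 0.34, unadjusted p = 3.02e-04, adjusted p = 0.0711 by limma), whereas cell16_LY differed from vehicle by 0.05 (SE 0.34, adjusted p = 0.988). The direct comparison placed cell16_LY 1.94 log2 units below cell2_LY, a log2 fold change of -1.94 (SE 0.34, unadjusted p = 3.61e-04, adjusted p = 0.186 by limma).

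The AP-2 factors bind the same kind of GC-rich element and act with the GATA factors in trophoblast. TFAP2C (chromosome 13, 59366398 to 59375952, minus strand) had 72.2, 70.2 and 55.0 FPKM in DMSO and 54.7, 49.7 and 41.1 FPKM in LY10. Every LY10 blastocyst was below every DMSO blastocyst, although DMSO replicate 3 and LY10 replicate 1 were almost equal, and the log2 fold change of -0.44 (SE 0.22, adjusted p = 0.27 by limma) did not pass. In the second table TFAP2C had 40.9 and 40.3 FPKM in LY_DMSO, 49.4 and 51.1 FPKM in cell2_LY and 25.6 and 29.9 FPKM in cell16_LY. It was the only member with no overlap upward for cell2_LY and downward for cell16_LY, with log2 fold changes of 0.31 (SE 0.24, adjusted p = 0.455 by limma) and -0.56 (SE 0.24, unadjusted p = 0.0483, adjusted p = 0.651). Of all tested genes, 26.9% were higher without overlap in cell2_LY and 22% lower without overlap in cell16_LY. Between the LY groups the log2 fold change of TFAP2C was -0.86 (SE 0.24, unadjusted p = 0.0065, adjusted p = 0.193 by limma), under the 2-fold limit.

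TFAP2A (chromosome 23, 45615045 to 45637794, plus strand) was at most 0.148 times TFAP2C in any blastocyst and varied widely between embryos of a group. It had 0.92, 2.58 and 7.96 FPKM in DMSO, 4.45, 2.69 and 2.79 FPKM in LY10, 4.61 and 0.62 FPKM in LY_DMSO, 3.88 and 7.55 FPKM in cell2_LY, and 3.76 and 1.54 FPKM in cell16_LY. The groups overlapped in every comparison apart from cell2_LY with cell16_LY. The log2 fold changes were 0.27 (SE 0.68), 1.67 (SE 0.86), 0.51 (SE 0.86) and -1.16 (SE 0.86) in the order of the comparisons above, with adjusted p between 0.268 and 0.924 by limma. The sign in LY10 turned to -0.49 without DMSO replicate 1.

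KLF5 (chromosome 12, 47795482 to 47818776, plus strand) is a Krüppel-like factor that the mouse embryo needs to form trophectoderm. It had 175, 126 and 88.0 FPKM in DMSO and 118, 129 and 102 FPKM in LY10, with the LY10 values inside the vehicle range and a log2 fold change of -0.11 (SE 0.27, adjusted p = 0.841 by limma). LY_DMSO had 121 and 72.3 FPKM, cell2_LY 145 and 167 FPKM and cell16_LY 80.8 and 91.6 FPKM. Both cell2_LY blastocysts were above vehicle, by a log2 fold change of 0.73 (SE 0.30, unadjusted p = 0.0406, adjusted p = 0.183 by limma), and the cell16_LY values lay between the 2 vehicle values. The cell16_LY blastocysts were below cell2_LY by -0.85 (SE 0.30, unadjusted p = 0.0216, adjusted p = 0.219 by limma). Neither difference reached 2-fold.

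ELF3 (chromosome 16, 80502941 to 80508015, minus strand), an ETS factor of epithelial differentiation, moved in opposite directions in the 2 blastocyst tables. DMSO blastocysts had 4.92, 6.30 and 5.31 FPKM and LY10 blastocysts 1.32, 1.25 and 3.98 FPKM. The groups did not overlap, LY10 replicate 3 being the nearest to vehicle, and ELF3 fell by 1.53 on the log2 scale (SE 0.49, unadjusted p = 0.0126, adjusted p = 0.124 by limma). LY_DMSO blastocysts had 2.84 and 1.71 FPKM and cell2_LY blastocysts 23.8 and 8.57 FPKM. The cell2_LY blastocysts were the highest of all 12, and the rise of 2.68 log2 units (SE 0.52, unadjusted p = 7.41e-04, adjusted p = 0.0711 by limma) passed the threshold. Its size depended on which embryo was kept, at 1.95 without cell2_LY replicate 1 and 3.42 without cell2_LY replicate 2, each leaving 1 cell2_LY blastocyst. Cell16_LY blastocysts had 4.34 and 3.55 FPKM, above vehicle without overlap but not past the threshold (log2 fold change 0.83, SE 0.52, adjusted p = 0.752 by limma). The direct difference between cell16_LY and cell2_LY was -1.86 (SE 0.52, unadjusted p = 0.0068, adjusted p = 0.193 by limma). Without cell2_LY replicate 1 it was -1.12 and no longer passed (unadjusted p = 0.0588), and without cell2_LY replicate 2 it was -2.59.

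ASCL2 (chromosome 29, 49311817 to 49313692, plus strand) and HAND1 (chromosome 7, 65748837 to 65752155, minus strand) are basic helix-loop-helix factors that act in proliferating trophoblast and in giant cells of the mouse. Both had a mean normalized count under 10 in the blastocyst tables and were not tested there. ASCL2 had 0, 5 and 4 reads in DMSO, 12, 1 and 5 in LY10, 1 and 3 in LY_DMSO, 12 and 9 in cell2_LY, and 6 and 1 in cell16_LY. The cell2_LY blastocysts (0.67 and 0.45 FPKM) were above vehicle (0.05 and 0.14 FPKM), and the LY10 values (1.196, 0.05 and 0.47 FPKM) overlapped those of DMSO (0, 0.36 and 0.32 FPKM). HAND1 had 0, 4 and 2 reads in DMSO and 6, 14 and 5 in LY10, so that its levels of 0.43, 0.50 and 0.34 FPKM in LY10 lay above 0, 0.21 and 0.12 FPKM in DMSO. In the second table HAND1 had 0 and 5 reads in LY_DMSO, 3 and 6 in cell2_LY, and 0 in each cell16_LY blastocyst. A count of 0 allows up to 3 reads, which is 0.103 and 0.130 FPKM in the cell16_LY blastocysts, so a difference from vehicle was not detectable at this depth. These limits and intervals cover counting error only.

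Over the members together, 7 could be tested in the blastocyst tables. In LY10 against DMSO, 1 of the 7 passed the threshold downward (ELF3) and 0 upward, where 8.51% of all tested genes passed downward. The levels were lower in LY10 without overlap for 2 of the 7 (ELF3 and TFAP2C), against 14.4% of all tested genes. Of the 7, 5 had a negative and 2 a positive log2 fold change, with a median of -0.38 beside -0.05 over all tested genes. ELF3 had the most negative value of the 7 and CDX2 the most positive.

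In cell2_LY against LY_DMSO, 3 of the 7 passed upward (CDX2, ELF3 and GATA2), where 8.71% of all tested genes did. With LY_DMSO replicate 1 left out, 5 passed, KLF5 and TFAP2A in addition, where 10.7% of all tested genes did. All 7 had a positive log2 fold change, with a median of 1.67 beside 0.00 over all tested genes. This median was 2.44 without LY_DMSO replicate 1, 1.10 without LY_DMSO replicate 2 and 1.19 without cell2_LY replicate 2. For 6 of the 7, all but TFAP2A, the cell2_LY values lay above vehicle without overlap, against 26.9% of all tested genes. The scale of cell2_LY replicate 1 bears on these levels. With reads on genes as library size the median of all genes shifted from 0.00 to 0.24, and 5 members passed, GATA3 and TFAP2A in addition to CDX2, ELF3 and GATA2, where 12.7% of all tested genes did.

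In cell16_LY against LY_DMSO, 0 of the 7 passed in either direction, where 5.22% of all tested genes passed. The values were above vehicle without overlap for 3 of the 7 (CDX2, ELF3 and GATA3), against 20.9% of all tested genes. They were below it without overlap for 1 (TFAP2C), against 22%. The median was 0.51 beside -0.01 over all tested genes, and it turned to -0.40 without LY_DMSO replicate 2 and to -0.03 without cell16_LY replicate 1. In cell16_LY against cell2_LY, 3 of the 7 passed downward (GATA2, ELF3 and CDX2), where 5.77% of all tested genes did, and 1 of them (GATA2) without cell2_LY replicate 1, where 2.68% did. The values were lower in cell16_LY without overlap for 6 of the 7, all but GATA3, against 26.3% of all tested genes, and the median was -1.16 beside 0.04 over all tested genes, or -1.80 without cell16_LY replicate 1. After Benjamini-Hochberg adjustment over all genes tested, 0 members had a p under 0.05 by limma in any of the 4 blastocyst comparisons, where 1, 5, 1 and 5 of the 7 had an unadjusted p under 0.05, beside 22.9%, 24.6%, 7.62% and 17.9% of all tested genes. With voom weights on the recovered reads these were 0 adjusted and 1, 5, 0 and 5 unadjusted. GATA2 reached an adjusted p of 0.0436 in cell2_LY without LY_DMSO replicate 1, where 0.411% of all tested genes had an adjusted p under 0.05. GATA2 and ELF3 reached 0.0454 and 0.0318 without cell2_LY replicate 2, where 6.03% did.

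**Figure D2:**
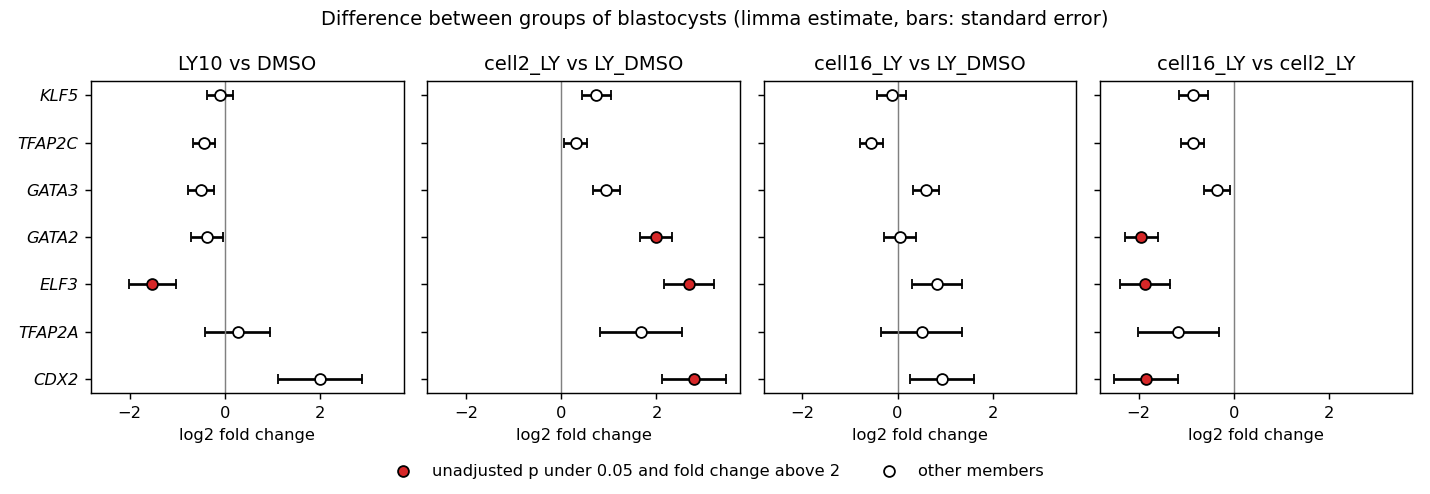
Log2 fold change of the 7 tested members in the 4 blastocyst comparisons, with bars for the standard error from limma. Filled points passed the threshold. ELF3 lies at -1.53 in LY10 and at 2.68 in cell2_LY, and every member lies below 0 in cell16_LY against cell2_LY.

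The factors were also compared with each other within an embryo, as a ratio that does not depend on library size. The 5 ratios computed were chosen after the values were seen, so the permutation p-values below describe the ordering and test no hypothesis set beforehand. CDX2 relative to GATA3 was 0.0203, 0.0046 and 0.0413 in DMSO and 0.135, 0.0901 and 0.0783 in LY10, so that every LY10 blastocyst was above every DMSO blastocyst. The ratio of geometric means was 6.27, with a 2-sided exact permutation p of 0.1, the smallest that 3 against 3 allows. The lowest DMSO value, 0.0046 in replicate 2, rested on 3 reads of CDX2, so the size of this ratio is uncertain. In the second table CDX2 relative to GATA3 was 0.0215 and 0.0252 in LY_DMSO, 0.108 and 0.075 in cell2_LY, and 0.0314 and 0.0307 in cell16_LY. The cell2_LY ratio was 3.86 times that of vehicle and the cell16_LY ratio 1.34 times, each with an exact permutation p of 0.333, the smallest for 2 against 2. GATA2 relative to GATA3 was 0.212, 0.458 and 0.332 in DMSO and 0.373, 0.31 and 0.355 in LY10, where the groups overlapped (exact permutation p = 0.8). It was 0.955 and 0.414 in LY_DMSO and 1.59 and 1.05 in cell2_LY, against 0.421 and 0.443 in cell16_LY. Of the 12 blastocysts, GATA2 exceeded GATA3 in both of cell2_LY alone. CDX2 relative to GATA2 was 5.79 times that of vehicle in LY10 without overlap (exact permutation p = 0.1). DMSO replicate 2 was again the lowest, at 0.0101 beside 0.096 and 0.124 in replicates 1 and 3. In the second table CDX2 relative to GATA2 was 1.88 times vehicle in cell2_LY and 1.95 times in cell16_LY, also without overlap (exact permutation p = 0.333 for each). The LY groups overlapped each other at 0.965 times. TFAP2A relative to TFAP2C overlapped in every comparison. ELF3 relative to KLF5 was 0.368 times vehicle in LY10 with overlap (exact permutation p = 0.2), and 3.90 times in cell2_LY and 1.94 times in cell16_LY without overlap (exact permutation p = 0.333 for each).

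**Figure D3:**
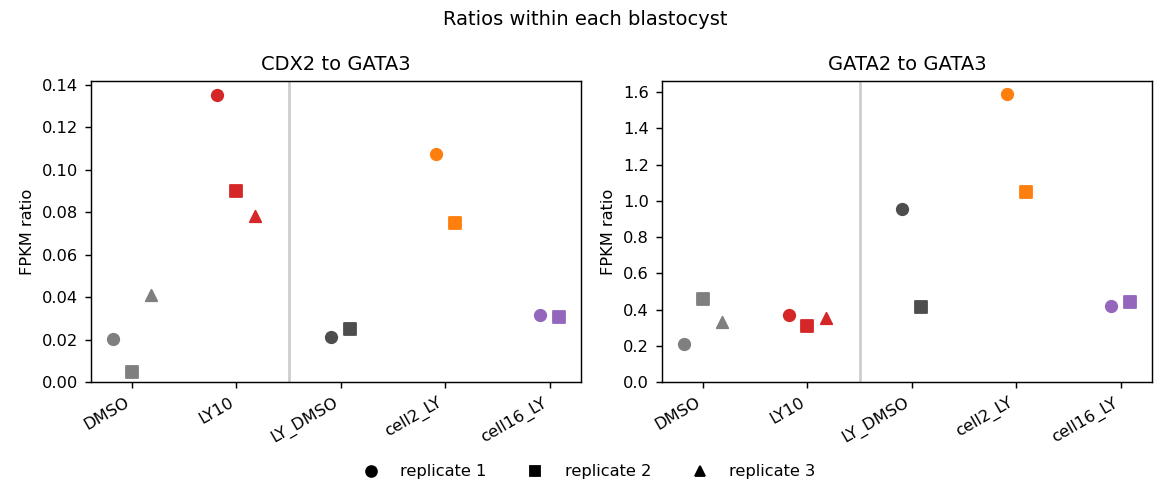
Ratio of CDX2 to GATA3 and of GATA2 to GATA3 in each blastocyst, from FPKM, on linear axes that start at 0. Points are blastocysts and their shape gives the replicate number. The LY10 points for CDX2 to GATA3 (0.0783 to 0.135) lie above all DMSO points (0.0046 to 0.0413), and the cell2_LY points for GATA2 to GATA3 are the only ones above 1.

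Other transcription factors of trophoblast were taken from a list of 24, of which 19 could be tested in the first blastocyst table and 21 in the second. Of all tested genes, 6.2% passed upward and 8.51% downward in LY10, 8.71% and 8.34% in cell2_LY, and 3.25% and 1.97% in cell16_LY. Between the LY groups, 5.58% of all tested genes passed as higher in cell16_LY and 5.77% as lower. In LY10, 1 passed upward and 2 downward, with a median log2 fold change of 0.01. GCM1, a driver of trophoblast fusion, rose by 5.58 log2 units, from 0.22, 0 and 0.38 FPKM to 3.68, 13.7 and 7.89 FPKM. The LY_DMSO vehicle blastocysts of the second table had GCM1 at 9.86 and 1.06 FPKM, so this factor was far from uniform between vehicle embryos. KLF4 (log2 fold change -1.29) and ARID3A (-1.03) fell. In cell2_LY, 3 passed upward and 1 downward with a median of 0.41. ARID3A (log2 fold change 1.99), DLX3 (1.88), a homeobox factor of placental trophoblast, and TEAD3 (1.14), a partner of YAP, rose, and ESRRB (-1.35) fell. In cell16_LY, ARID3A (1.25) and ID2 (1.11) rose and ESRRB (-1.29) fell, with a median of 0.16. Between the LY groups TEAD1 (-1.33) and TEAD3 (-1.17) were lower in cell16_LY, with a median of -0.20. ARID3A thus fell in LY10 and rose in cell2_LY, as ELF3 did.

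Genes that carry out the work of the differentiated trophectoderm were taken from a list of 21, all of them tested in blastocysts. The shares of all tested genes were again 6.2% upward and 8.51% downward in LY10, 8.71% and 8.34% in cell2_LY, and 3.25% and 1.97% in cell16_LY. Between the LY groups they were 5.58% higher in cell16_LY and 5.77% lower. In LY10, 2 passed upward and 2 downward (median log2 fold change -0.03). The junction genes CDH1 (1.93) and DSP (1.57) rose, and the lipid carrier FABP5 (-1.60) and the steroid enzyme HSD3B1 (-2.27) fell. In cell2_LY, 5 passed upward and 1 downward (median 0.50), led by the protease FURIN (2.27) and the tight junction gene CGN (1.12), with CDH1 lower (-1.18). In cell16_LY, 4 passed upward and 0 downward (median 0.48), namely the trophoblast Kunitz gene TKDP1 (3.43), IFNT2 (3.36), the keratin KRT19 (2.31) and CYP11A1 (2.33), the first enzyme of steroid synthesis. IFNT2, the interferon tau gene under that name, was at 12.3 and 5.24 FPKM in cell16_LY, 1.25 and 0.89 FPKM in cell2_LY and 0.83 and 0.65 FPKM in LY_DMSO. It belongs to a family of near-identical copies whose reads the counting may have split, and its value is uncertain. Between the LY groups 4 passed upward in cell16_LY, led by IFNT2 (2.87) and CDH1 (1.25), and 3 downward, led by CGN (-1.15) and FURIN (-1.89). The cell16_LY blastocysts therefore combined higher IFNT2 with lower CDX2, GATA2 and ELF3 than cell2_LY. Among all genes of these lists named for blastocysts, the smallest adjusted p was 0.0711 (ARID3A in cell2_LY, limma).

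Markers of other cell types moved with some of these results. The summed FPKM of the 9 epiblast markers in the blastocyst tables was 212 to 323 in DMSO and 400 to 785 in LY10. Most of each sum was POU5F1, at 246, 184 and 164 FPKM in DMSO and 481, 611 and 328 FPKM in LY10. POU5F1 is also expressed in bovine trophectoderm, so these sums do not isolate the epiblast. Of the 7 tested, 1 passed upward, POU5F1 (log2 fold change 1.23), and 0 downward, where 6.2% and 8.51% of all tested genes did. NANOG (1.60), PRDM14 (1.23), DNMT3B (1.08) and SOX2 (0.85) were positive without passing, and SALL4 (-0.25) and LIN28B (-0.44) were negative. The epiblast sum was 313 to 527 in LY_DMSO, 372 to 483 in cell2_LY and 324 to 380 in cell16_LY. FGF4 had 0 reads in all 6 blastocysts of the second table. DNMT3B (-1.05) was lower in cell16_LY than in cell2_LY. The 10 hypoblast markers summed to 169 to 308 in DMSO and 234 to 356 in LY10, where 2 of the 8 tested, HNF4A (3.31) and PDGFRA (3.74), passed upward and 0 downward. The signs were 4 positive and 4 negative, with a median of 0.07. GATA6, a hypoblast factor, had 107, 91.3 and 64.8 FPKM in DMSO and 57.3, 46.2 and 52.6 FPKM in LY10, without overlap (log2 fold change -0.73, adjusted p = 0.132 by limma). LAMA1 (-2.20), NID2 (-1.10) and GATA4 (-1.03) also had negative values that did not pass. FN1 (0.88) and COL4A1 (0.88) had positive values that did not pass. The hypoblast markers summed to 315 to 482 in LY_DMSO, 287 to 341 in cell2_LY and 228 to 391 in cell16_LY. In cell2_LY 1 of the 8 tested passed downward, PDGFRA (-2.01), and 0 upward, where 8.34% and 8.71% of all tested genes did. The signs were again 4 and 4, with a median of -0.01. GATA6 had 58.6 and 61.2 FPKM in LY_DMSO and 88.5 and 91.7 FPKM in cell2_LY (log2 fold change 0.59, adjusted p = 0.212 by limma). The part of epiblast or hypoblast RNA in the members' differences was not tested.

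The 8 mesoderm and fibroblast markers summed to 20.5 to 90.4 FPKM in DMSO and 5.65 to 11.6 FPKM in LY10. Of the 4 tested there, 2 passed downward, COL1A2 (-1.22) and DCN (-2.76), and 0 upward, where 8.51% and 6.2% of all tested genes did. LUM alone was at 80.1 FPKM in DMSO replicate 3. In the second table the sums were 11.7 to 15.8 in LY_DMSO, 11.2 to 14.8 in cell2_LY and 8.999 to 9.50 in cell16_LY. The 7 cumulus markers were at most 5.73 FPKM in sum, and the 8 oocyte markers at most 4.44 FPKM, in any blastocyst, and none of either list passed the threshold in a comparison. Few could be tested, 5 cumulus and 1 oocyte marker in the first table and 2 of each in the second. The part of these cells in the ELF3 and CDX2 differences of LY10 was not tested.

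Genes whose levels followed CDX2 most closely over the 12 blastocysts, after each table was centred on its mean, were SLC25A1 (Pearson r = 0.964), B4GALT3 (0.957) and SNTB1 (0.955) among 9326 genes. SLC25A1 encodes the mitochondrial citrate carrier. For GATA3 they were ITSN2 (0.895), ACAD8 (0.893) and PTGES (0.888) among 9325 genes. These values describe embryos that share a library preparation, a table and the same groups, and the highest of many correlations are chosen here, so no p is given.

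In the stem cells the members were mostly low. GATA3 had 0.21 and 0.54 FPKM in bESC_tifx (replicates 2 and 3) and 0.12 and 0.48 FPKM in bESC_LY (2 and 3). Levels between this table and the blastocyst tables rest on different gene models, the stem cell table giving Ensembl genes and a GATA3 length of 2395 bases against 4940, and the genome build is not given in the sources used here. TFAP2A (0.09, 0.11, 0.10 and 0.06 FPKM in the same order) was low, with 8 to 15 reads. ELF3 was even across the libraries at 1.57, 1.82, 1.77 and 1.68 FPKM. ASCL2 was more abundant in each stem cell library than in any blastocyst, at 3.55, 3.79, 2.67 and 3.71 FPKM.

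No difference of a member between bESC_tifx and bESC_LY was larger than the spread between libraries. KLF5 had 4.25 and 9.61 FPKM in bESC_tifx and 3.38 and 9.59 FPKM in bESC_LY. TFAP2C had 1.01 and 4.64 FPKM against 1.42 and 4.36 FPKM, and GATA2 0.38 and 1.42 FPKM against 0.31 and 1.26 FPKM. In each of these genes replicate 2 was the lower in both groups, and the groups overlapped. Of the 8 members tested (HAND1 was under the count minimum), 0 passed the threshold in either direction, where 0.0749% of all tested genes passed. The log2 fold changes ran from -0.47 (GATA3, SE 0.93) to 0.20 (TFAP2C, SE 0.93), with adjusted p of 1.00 by limma. No member had an unadjusted p under 0.05, by limma or by voom. These fits did not pair the libraries by replicate number. The standard errors are therefore wide for the genes that differ between replicates 2 and 3, and reach 2.61 for CDX2 (log2 fold change -0.20). With the replicate number as a block, 69 of the 16012 tested genes passed upward and 77 downward, against 6 and 6 without it. Of the members, 0 passed with the block too.

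CDX2 differed most between the replicate numbers. It had 0.37 FPKM in bESC_tifx replicate 2 (14 reads) and 13.7 FPKM in replicate 3 (562 reads). In bESC_LY it had 0.24 FPKM in replicate 2 (9 reads) and 15.2 FPKM in replicate 3 (624 reads). Replicate 3 was thus 37.3-fold higher in bESC_tifx and 62.7-fold higher in bESC_LY, and CDX2 was the most abundant member there while KLF5 was in replicate 2. The labels do not say what sets the numbers apart, and this contrast was noticed in the data, so it is described without a test. TFAP2C was 4.58-fold and 3.06-fold higher in replicate 3, GATA2 3.70-fold and 4.002-fold, GATA3 2.54-fold and 4.18-fold, and KLF5 2.26-fold and 2.83-fold. HAND1 had 2 and 0 reads in the replicates numbered 2 and 21 and 17 reads in those numbered 3. In all, 5 of the 8 tested members were more than 2-fold higher in replicate 3 in both groups, where 4.81% of the 16012 tested genes were. ASCL2, ELF3 and TFAP2A were not.

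**Figure D4:**
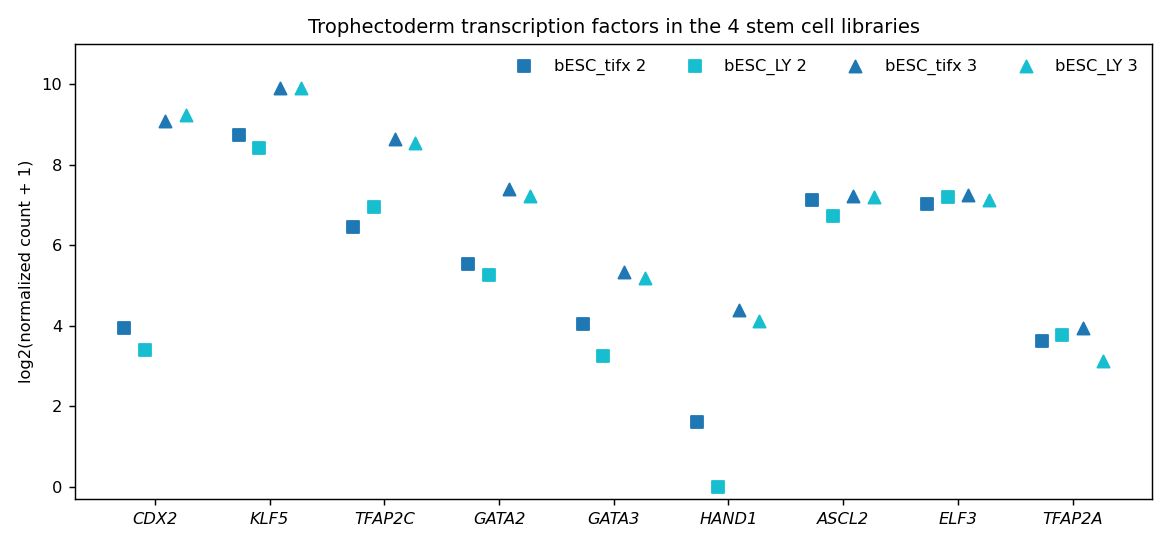
Level of the 9 members in the 4 stem cell libraries as log2(normalized count + 1). Dark blue points are bESC_tifx and light blue points bESC_LY, squares are replicate 2 and triangles replicate 3. The triangles lie far above the squares for CDX2 (562 and 624 reads against 14 and 9), and the 2 groups lie close together within a replicate number.

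The other lists held genes that differed in both directions between the replicate numbers. Of all 16012 tested genes, 770 were over 2-fold higher in replicate 3 in both groups and 633 were over 2-fold lower. Of the 20 tested trophoblast factors outside the members, 1 was over 2-fold higher in replicate 3 in both groups, TBX3 (6.47-fold and 9.87-fold), and 1 lower, VGLL1. Of the 16 tested genes of the differentiated trophectoderm, 1 was higher (DSP) and 6 lower. The keratin KRT18, for example, had 85.6 and 72.6 FPKM in replicate 2 and 18.4 and 16.8 FPKM in replicate 3. Among hypoblast markers 2 of 6 tested were higher, FN1 and COL4A1, and 0 lower. Of those under the count minimum, SOX17 had 0 and 0 reads in the replicates numbered 2 and 8 and 24 in those numbered 3. GATA4 had 0 and 3 reads against 12 and 21, GATA6 4 and 0 against 8 and 17, and HNF4A 6 and 5 against 11 and 15. Among epiblast markers 0 of 8 tested were higher and 1 lower. Among mesoderm and fibroblast markers 0 of 5 tested were higher and 1 lower, LUM (0.454-fold and 0.145-fold), and among cumulus markers 1 of 3 was higher, HAS2 (2.99-fold in both groups), and 0 lower. The summed level of the mesoderm and fibroblast markers was 53.5 to 62.2 FPKM over the 4 libraries, mostly from COL1A1 (45.8 to 54.7 FPKM). The part of feeder cell RNA and of other lineages in the difference between the replicate numbers was not tested.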

How the data were processed

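Single blastocysts were amplified with SMART-Seq, and stem cell RNA came from a column kit. Per the labels and the paper, the authors trimmed reads with fastp, aligned them with HISAT2 2.0.5 (STAR is also named), counted them with featureCounts 1.5.0-p3 and compared groups with DESeq2 1.20.0. The submitters' processing notes also name StringTie 1.3.3b. The deposited values are FPKM, computed by the authors from gene length and mapped reads. Their own fold change and p-value columns were not used. FPKM times length fell on whole reads for 100% of values (tolerance 0.02 reads), which gave reads and library sizes. The normalized count is the reads scaled to the table's geometric mean library size.

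Testing used limma 3.58.1 (R 4.3.3; lmFit, eBayes with trend) and kept genes whose normalized count averaged 10 or more, on log2(normalized count + 1), with Benjamini-Hochberg adjustment over all tested genes, 1 fit per table. The threshold was the study's, unadjusted p below 0.05 together with a log2 fold change beyond 1 in size. A test foreseen for tables of whole counts did not apply, since the files hold FPKM, and voom on the recovered reads was an alternative. A count of 0 was given a limit of 3 reads. Ratios were compared by exact permutation of log values. The fits were tested on simulated data. Alternatives were pseudocounts of 0.5 and 5, other filters (none, a mean of 50), other scalings, log2(FPKM + 1) for genes averaging 0.5 FPKM or more, a replicate block, each library left out and, added after seeing the data, reads on genes as library size. The genes named are the 9 members, list genes past the threshold (where over 4 of a list passed, the 2 with the smallest p in each direction), the 3 genes most like CDX2 and GATA3 with a mean of at least 50, and cell type markers. The members and lists were chosen with earlier results of these data known. KRT8, LUM, COL1A1, GATA6, LAMA1, NID2, GATA4, FN1, COL4A1, the further epiblast markers of the stem cells and the genes named for the stem cell replicate numbers were named after their values were seen. Python was version 3.11.15, with pandas 2.3.3, scipy 1.17.1 and matplotlib 3.10.9.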

Additional observations from a re-analysis of the deposited data

Results flagged for a closer look

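LY from the 16-cell stage and LY from the 2-cell stage gave different levels of 3 members in the direct comparison within the second table (limma, unadjusted p under 0.05 and over 2-fold). The log2 difference of cell16_LY minus cell2_LY was -1.94 for GATA2, -1.86 for ELF3 and -1.84 for CDX2, in 2 of 2 blastocysts below both cell2_LY blastocysts for each gene. None had an adjusted p under 0.05 (0.186, 0.193 and 0.227). Of all tested genes, 5.77% passed downward in this comparison and 26.3% were lower without overlap. Over the alternatives the call was lost in 4 of 16 for CDX2, 1 of 17 for ELF3 and 0 of 17 for GATA2.

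For 2 members, every blastocyst given LY from the 2-cell stage lay below its vehicle in the first table and above it in the second. Of all tested genes, 14.4% were lower without overlap in the first table and 26.9% higher in the second. The share that did both is not given here, so how unusual 2 members are cannot be judged. ELF3 had a log2 fold change of -1.53 in LY10 against DMSO and 2.68 in cell2_LY against LY_DMSO. TFAP2C had -0.44 and 0.31 and passed the threshold in neither (adjusted p of 0.27 and 0.455 by limma). The tables were normalized separately and the dose of the second is not in the labels, and the difference between these effects was not tested.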

How the results depend on the processing

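Over the alternatives, the members' log2 fold changes kept their direction and side of the threshold in 526 comparisons, gained a call in 21, lost it in 5 and reversed in 21. In LY10 against DMSO, 2 members passed in place of 1, CDX2 joining ELF3, with a pseudocount of 5, no filter, quantile normalization, log2(FPKM + 1), the replicate block or reads on genes, and 1 to 2 with a library left out. In cell2_LY against LY_DMSO, 5 passed in place of 3 with quantile normalization (GATA3 and KLF5 added; 7.98% of all tested genes passed upward) or reads on genes, and 3 to 5 with a library left out. In cell16_LY against LY_DMSO, 0 to 1 passed with a library left out, TFAP2A without LY_DMSO replicate 1. In cell16_LY against cell2_LY, 5 passed in place of 3 with quantile normalization or reads on genes (KLF5 and TFAP2C added; 5.47% and 8.66% of all tested genes passed downward), and 1 to 3 with a library left out. Of all called genes, 51.1% were higher in cell2_LY than in LY_DMSO (73.2% with reads on genes), 49.1% higher in cell16_LY than in cell2_LY (25.03% with reads on genes) and 42.2% higher in LY10 (55.0% with quantile normalization). In bESC_LY the count was 0 under every alternative.

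Directions that turned did so with a library left out. The log2 fold changes then ran from -0.36 to 0.14 for KLF5 and from -0.49 to 1.06 for TFAP2A in LY10. In cell16_LY against LY_DMSO they ran from -0.49 to 0.25 for KLF5, -0.93 to 1.94 for TFAP2A, -0.40 to 0.50 for GATA2 and -0.40 to 0.78 for the median. In bESC_LY they ran from -3.12 to 2.71 for CDX2, -1.44 to 0.50 for GATA3, -1.22 to 0.76 for GATA2, -0.92 to 0.59 for KLF5, -0.89 to 1.29 for TFAP2C, -0.45 to 0.016 for ASCL2, -0.079 to 0.13 for ELF3 and -0.82 to 0.54 for the median. CDX2 in bESC_LY was also 0.00033 with log2(FPKM + 1). A stem cell library left out leaves its group with a single replicate number against both numbers in the other group. CDX2 differed 37.3-fold and 62.7-fold between those numbers. The cause was not tested.

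The replicate block gave 2 called members in LY10, 4 in cell2_LY (TFAP2A added), 0 in cell16_LY against LY_DMSO, 3 in cell16_LY against cell2_LY and 0 in bESC_LY. The numbers do not establish pairs in the blastocysts, where deviations of same-numbered samples correlated at -0.12, 0.17 and -0.10 in the first table and between -0.23 and 0.12 in the second. In the stem cells they correlated at 0.79, with only 2 pairs, and each library was most alike to the one of its own number in the other group (Spearman 0.995 and 0.996). Depth limits HAND1 and ASCL2, with at most 14 and 12 reads in a blastocyst.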
